A study of Homo sapiens with 30 samples.

Results

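The replication-dependent histone genes encode the H1, H2A, H2B, H3 and H4 proteins that package newly made DNA. They were taken as the protein-coding genes with the symbols H1-1 to H1-6 and those whose symbols begin with H2AC, H2BC, H3C or H4C followed by a number. These came to 69 of the 60675 gene rows of the table: 6 genes of H1, 17 of H2A, 18 of H2B, 13 of H3 and 15 of H4. The 34 members with enough counts were tested, and the other 35 are described by level. RNA was sequenced from A549 cells, a human lung carcinoma line with epithelial features, after 24 h with an ethanol extract of a Korean tonifying formula or with vehicle. Sibjeondaebo-tang and Palmul-tang were given to 3 libraries per dose, Samul-tang to 2 and Sagunja-tang to 1. The doses were 20 µg/mL (low), 100 µg/mL (medium) and 500 µg/mL (high). The 3 vehicle libraries received DMSO, given as 0.1% in the sample labels and at another concentration in the series text. Palmul-tang joins the herbs of Samul-tang and Sagunja-tang, and Sibjeondaebo-tang adds further herbs to those of Palmul-tang. Nothing states that replicates came from separate cultures, so SDs and p-values cover only how far these libraries differ, and that spread may be technical.

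In cycling cells these genes are transcribed mainly in S phase, when histone supply must keep pace with DNA synthesis. Their mRNAs lack introns and normally lack a poly(A) tail. They end instead just after a short stem-loop, which the stem-loop binding protein SLBP holds during processing, translation and decay. Some members are also known to give longer, polyadenylated transcripts that read past the stem-loop, above all in cells that leave the cycle. The labels describe an mRNA library made with a directional kit and do not say whether poly(A) RNA was selected. How far counts here follow the stem-loop-ended transcripts is therefore not known.

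The stem-loop is the element that sets these transcripts apart, and it is shown for the members on which the results turn. The 16-base consensus of the histone stem-loop, read on the sense strand, was found in the GENCODE v29 transcripts of 31 members, and in 11 of 19595 coding genes outside the rule (0.0561%). Capitals mark the 16 bases of the stem-loop.
H3C6: ccaaaGGCTCTTCTCAGAGCCaaccacttt
H4C8: ccaaaGGCCCTTTTCAGGGCCgcccacttt
H4C16: caaaaGGCCCTTTTCAGGGCCcccaaactg
H4C14 and H4C15: ccaaaGGCCCTTTTTAGGGCCgaccacttg
H2BC18: ccaaaGGCTCTTTTCAGAGCCacttcagta
H2AC6: ccaaaGGCTCTTTTCAGAGCCcccctaccg
H2BC5: ccaaaGGCTCTTTTAAGAGCCacgcatgtt
The commonest form, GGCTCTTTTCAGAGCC, was shared by 17 members of H2A, H2B and H3. The H4 genes carried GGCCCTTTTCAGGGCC in 5 members and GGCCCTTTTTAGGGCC in 3. The form of H3C6 was found in no other member. In 23 members the annotated transcript ran at least 100 bases past the stem-loop. In 8 members it ended nearer to it, and in the other 38 the annotated transcripts held none.

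The promoters of the family also share short elements. In windows from 250 bases before to 50 after the RefSeq start (GRCh38.p14, both strands), TATAAA was found in 43 of the 64 members with a window (67.2%), against 11.5% of 35116 promoters of all genes. CCAAT was found in 54 members (84.4%, against 34.6% of all promoters), and ATTTGCAT, the octamer known to bind OCT1, in 26 members (40.6%, against 1.77%). The octamer stood in 14 of 18 H2B and 11 of 16 H2A promoters, and in none of the 13 H4 promoters. CCAAT stood in 3 of those 13. In 5 member promoters the motifs overlapped. The 150 bases before the start are shown for a gene higher at the high dose of Sibjeondaebo-tang than at its low dose (H2BC12), a gene lower there (H4C16) and a gene higher in that high dose than in vehicle (H2BC5). Capitals mark these motifs on either strand.
H2BC12, chr6:27146859-27147008, minus strand: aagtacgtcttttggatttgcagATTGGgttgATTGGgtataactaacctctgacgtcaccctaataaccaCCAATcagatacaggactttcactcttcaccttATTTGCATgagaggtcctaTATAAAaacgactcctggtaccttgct
H4C16, chr12:14771132-14771281, minus strand: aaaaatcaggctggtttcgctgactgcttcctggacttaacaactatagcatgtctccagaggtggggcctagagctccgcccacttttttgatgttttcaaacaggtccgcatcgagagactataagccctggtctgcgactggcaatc
H2BC5, chr6:26157971-26158120, plus strand: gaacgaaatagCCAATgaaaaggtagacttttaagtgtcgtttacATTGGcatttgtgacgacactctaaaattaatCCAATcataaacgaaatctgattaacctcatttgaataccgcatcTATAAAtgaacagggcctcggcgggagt
The 150 bases of H2BC12 held 1 TATAAA, 3 CCAAT and 1 ATTTGCAT, and those of H2BC5 held 1 TATAAA and 3 CCAAT. None of these motifs stood in the 150 bases of H4C16. A match is a description of the sequence and no evidence that a factor binds there.

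Totals ran from 23986637 to 35159898 counts per library (median 32383996), and 17701 genes were abundant enough to test. The epithelial keratins KRT8 and KRT18 stood at 3350 to 4400 and 2268 to 2924 CPM (counts scaled to library size by TMM), while SFTPC, which marks surfactant-producing alveolar cells, stood at 0 to 0.285 CPM. Markers of other cell types such as PTPRC, CD3E, CDH5, VWF and COL1A2 were each at 0 in some library. Others were above 0 in every library: COL1A1 at 1.04 to 2.60 CPM, PECAM1 at 0.0937 to 0.433, PDGFRB at 0.0282 to 0.298, and DCN. The markers of other cell types together came to 6.66 to 8.15 CPM in high-dose and 7.40 to 8.53 CPM in low-dose Sibjeondaebo-tang, 6.78 to 8.42 CPM in high-dose and 7.78 to 8.35 CPM in low-dose Palmul-tang, 8.21 to 8.44 CPM in high-dose and 7.71 to 9.06 CPM in low-dose Samul-tang, and 6.61 to 7.35 CPM in vehicle. All low-dose groups and high-dose Samul-tang thus lay above vehicle, and DCN, at 4.12 to 6.89 CPM, was the most abundant of these markers. DCN and COL1A1 did not move together: in high-dose Palmul-tang against vehicle they differed by 0.30 and -0.64 on the log2 scale. The titles give all libraries the same batch name. The library codes begin in one way for vehicle, in another for Samul-tang and Sagunja-tang, and in another for Palmul-tang and Sibjeondaebo-tang. What they stand for is not stated, and a difference that goes with them cannot be told apart from one between treatments in these groups. For that reason doses of a formula are compared before vehicle is used.

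Histone transcripts of this class were scarce in these libraries. The 69 members together held between 0.00951% and 0.0113% of all counts of a library (median 0.0104%). A count was seen for 65 of them. H2AC1, H2BC1, H4C6 and H4C7 had none among 954629470 counts, which allows each up to 0.00314 CPM (3 counts over all libraries, counting error only). The most abundant member that was not tested, H3C3, averaged 0.113 CPM.

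The members with the most counts came from every family. H2AC6 averaged 15.7 CPM over the 30 libraries, H1-2, a linker histone, 11.1 CPM, H2AC19 10.3 CPM, H2BC21 8.13 CPM and H2BC12 7.74 CPM. H4C8 averaged 6.17 CPM, H2BC5 6.07 CPM, H4C15 5.89 CPM, H3C6 5.28 CPM and H4C14 3.96 CPM. These 10 genes held 74.6% to 79.6% of the counts of the family in each library. Per kilobase of v29 exon the order was another: H2BC12 came to 20.3, H2AC19 to 18.2, H1-2 to 17.3, H2AC6 to 9.42 and H2BC5 to 6.96 CPM per kilobase, and H3C6 to 1.97. The gene model used by the authors is not known, and the v29 model of H2BC12 holds 381 bases, so these values per length are approximate. H2AC6 (chr6:26124145-26139116), H1-2 (chr6:26055787-26056428), H2BC12 (chr6:27146418-27146798), H4C8 (chr6:26277609-26285638), H2BC5 (chr6:26158146-26171349) and H3C6 (chr6:26224199-26227473) lie in the large histone cluster, which holds 55 members between bases 25726132 and 27893843 of GRCh38. H2AC19, H2BC21, H4C14 and H4C15 are among 13 members on chromosome 1, and H4C16 (chr12:14767999-14771131) lies alone on chromosome 12.

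**Figure D1:**
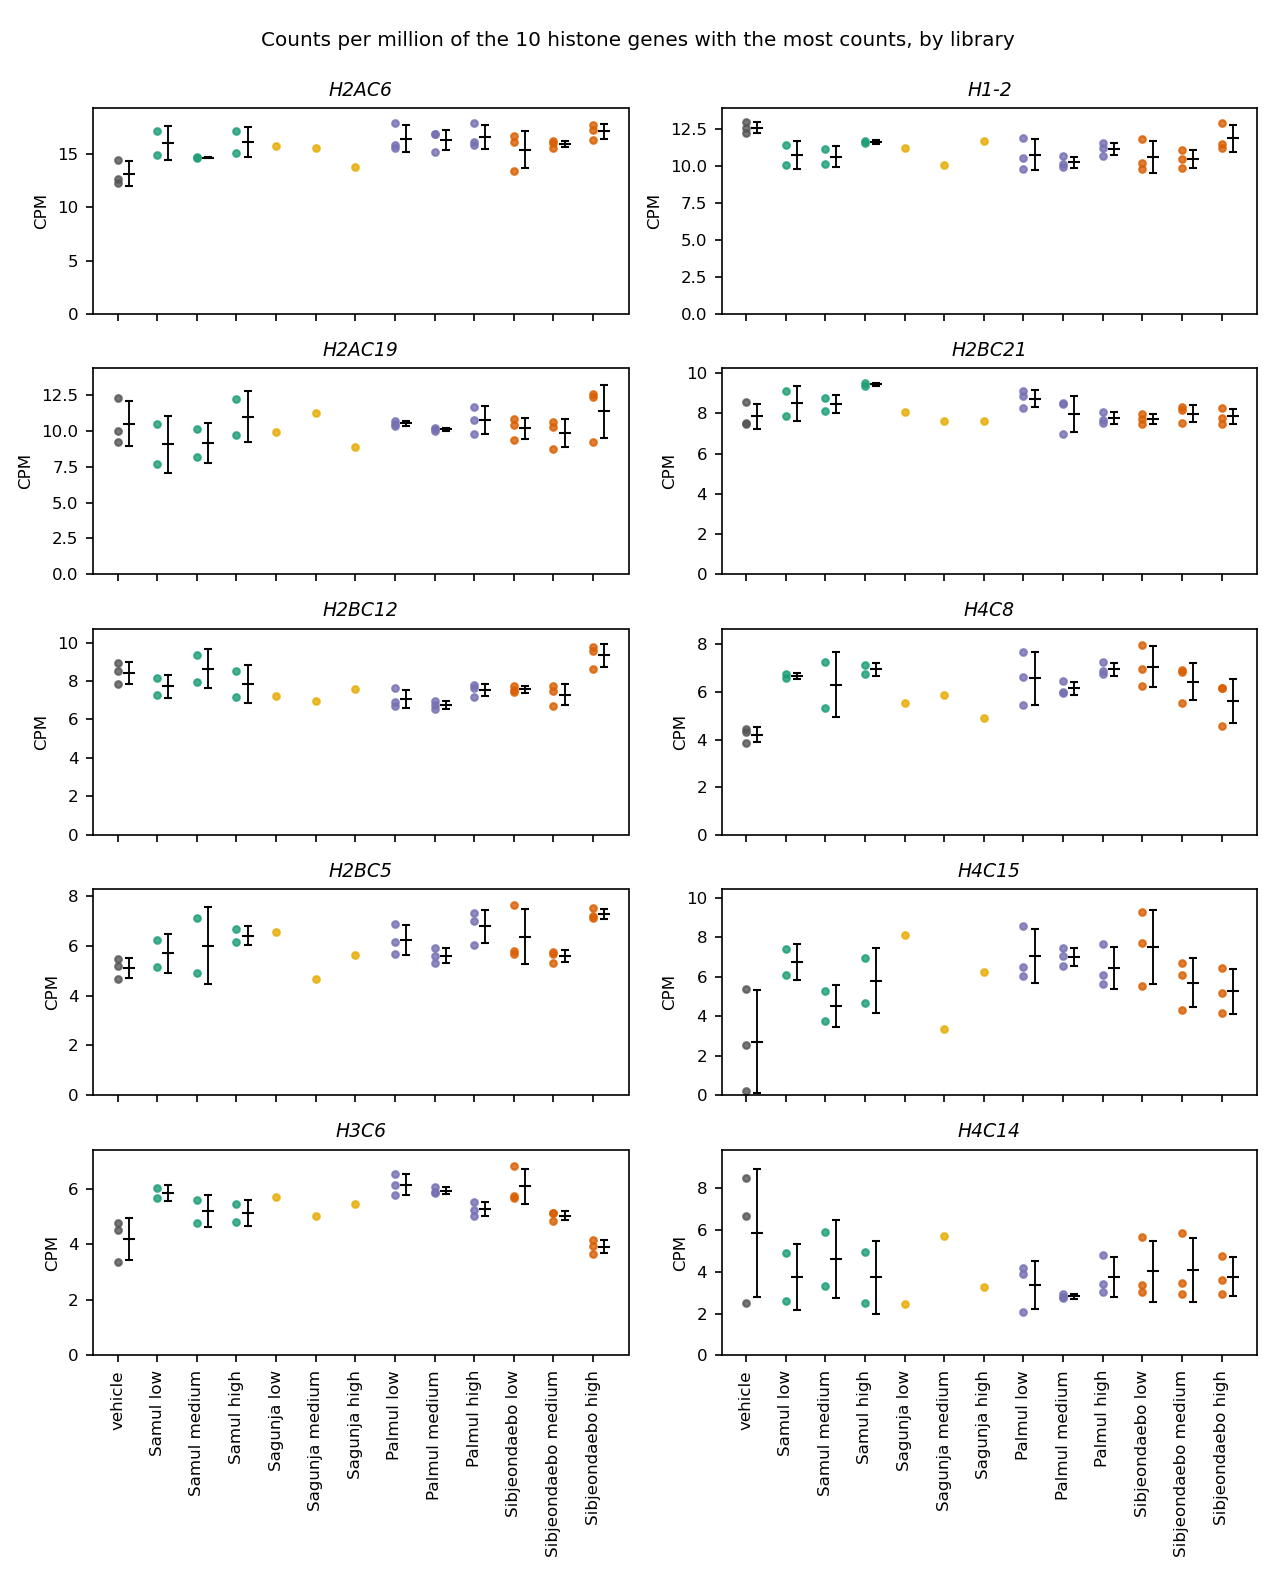
Scaled counts (CPM, by TMM, linear axis from 0) of the 10 histone genes with the most counts, for vehicle and for the low, medium and high dose of each formula. Points are libraries, and black marks with bars are the mean ± SD where a group has 2 or more libraries. H3C6 was between 3.67 and 4.16 CPM in high-dose Sibjeondaebo-tang (3 libraries), below its low dose at 5.68 to 6.82, and H4C8 was lower in vehicle, at 3.84 to 4.45, than in every extract library.

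Many members are near-identical copies, and the deposited values divide shared reads among them. Values that were not whole numbers, which mark such division, occurred in 23 members, 18 of them tested. The other 42 members with a count had only whole values, among them H3C6, H4C8, H4C16, H2BC5 and H1-2. Among members with shared reads, H2BC12 had values that were not whole in 26 of 30 libraries. H2BC18 and H2BC21 had them in 16 libraries each and H2AC6 in 4. H3C14 and H3C15 had the same value in all 30 libraries, yet values that were not whole in only 15. A whole value therefore does not exclude shared reads. H2AC18 was at 0 in 22 libraries and above 0 in 8, while H2AC19 was counted in each. H4C15 took between 2.25% and 80.5% of the counts of H4C14 and H4C15. The coefficient of variation within a group, averaged over the 7 groups of 3 libraries, was 33.5% for H4C14 and 40.6% for H4C15 but 6.35% for their sum. For comparison it was 11.6% for H4C8 and 8.86% for H3C6. Differences of H4C14 or H4C15 alone are therefore uncertain, and their sum is given beside them. H3C14 also overlaps an exon of H4C14 on the other strand, H3C15 one of H4C15, H2AC15 one of H2BC15, H2BC18 one of FCGR1A and H2AC21 one of BOLA1. Whether the counting used the strand is not given in the sources used here.

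**Figure D2:**
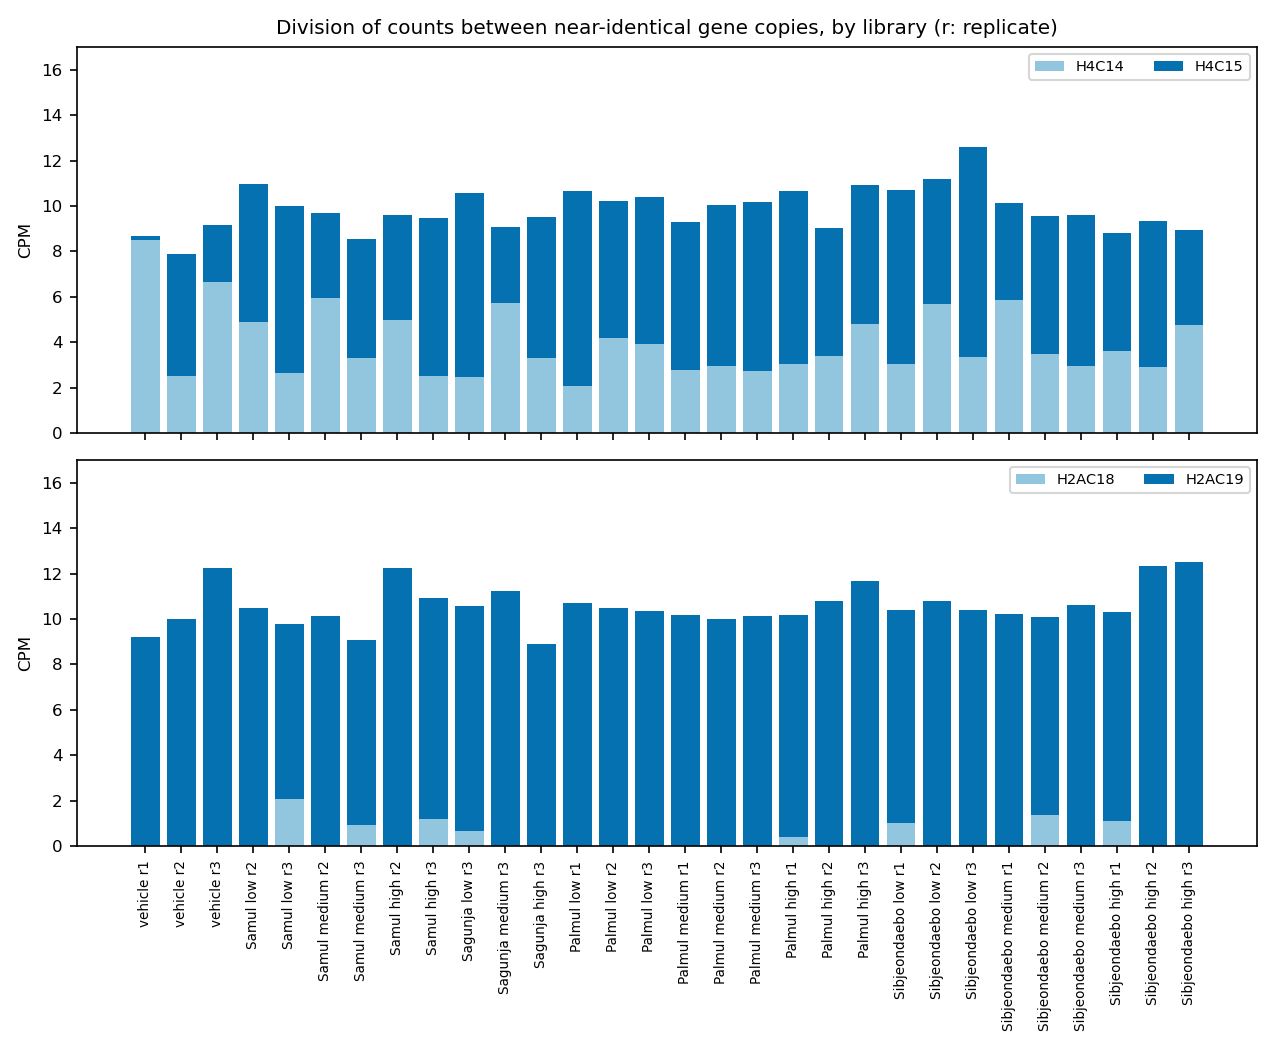
CPM of H4C14 with H4C15 (top) and H2AC18 with H2AC19 (bottom), stacked, in each of the 30 libraries (r marks the replicate number). The division within a pair jumps between replicates of a group, as in vehicle, where H4C15 had 0.196, 5.39 and 2.52 CPM, while the height of the stack varies less.

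The high dose of Sibjeondaebo-tang was set against its low dose to ask which members followed its dose. The H3 gene H3C6, the H4 genes H4C8 and H4C16 and the H2B gene H2BC18 were lower at the high dose, and the H2B gene H2BC12 was higher. H3C6, which encodes a canonical H3 protein, was at 3.67, 3.94 and 4.16 CPM in the high-dose libraries, against 5.75, 5.68 and 6.82 CPM in the low-dose libraries. The groups did not overlap, and the medium dose lay between them at 4.84, 5.14 and 5.13 CPM. H3C6 fell by 0.63 on the log2 scale (SE 0.109, adjusted p = 2.46e-05, edgeR's quasi-likelihood test adjusted over all genes), and it passed under each of the 13 alternatives run. In bulk samples such as these, fewer cells of a kind and less RNA per cell cannot be told apart.

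In total 1 of the 34 tested members rose and 4 fell, which is 14.7% of them, while 38.4% of all genes tested passed in this comparison (18.5% higher and 19.9% lower). Their median log2 difference was 0.04, against -0.01 over all genes. Many tested members were scarce: H3C14, ranked 17 by mean level, averaged 0.882 CPM, and those ranked below it had less. Scarce members pass only with large differences. Here and below, the share over all genes is not matched for level. H4C8, an H4 gene, had 4.56, 6.16 and 6.17 CPM in the high-dose libraries, against 6.26, 6.96 and 7.96 CPM in the low-dose libraries. The groups came close without overlapping, and the high dose had its lowest value in replicate 1. H4C8 fell by 0.32 (SE 0.125, adjusted p = 0.0404). That call was lost with DESeq2 (adjusted p = 0.0705), without high-dose replicate 1 (0.341) and without low-dose replicate 2 (0.0713) or 3 (0.201).

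H2BC18, an H2B gene on chromosome 1 (chr1:149782689-149812373), was at 0.505, 0.970 and 1.056 CPM in the high-dose libraries, against 1.31, 1.38 and 1.27 CPM in the low-dose libraries. Every high-dose library was below every low-dose library, and replicate 1 of the high dose was lowest. It fell by 0.63 (SE 0.208, adjusted p = 0.0151), which did not pass without that replicate (0.232), with DESeq2 (0.0592) or in a fit to these 2 groups alone (0.0517). H4C16, the H4 gene outside the clusters, had 16, 8 and 12 counts, or 0.570, 0.297 and 0.396 CPM, in the high-dose libraries, against 0.595, 0.711 and 0.871 CPM in the low-dose libraries. It fell by 0.77 (SE 0.288, adjusted p = 0.0323). At this depth the call was lost without high-dose replicate 2 (0.168) or 3 (0.0987), without low-dose replicate 2 (0.0584) or 3 (0.135), with DESeq2 (0.109), in a fit to these groups alone (0.0535) and with no filter on low counts (0.0824).

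H2BC12 moved the other way. It had 9.78, 8.65 and 9.57 CPM in the high-dose libraries, against 7.74, 7.53 and 7.41 CPM in the low-dose libraries. All high-dose values were above all low-dose values, while the medium dose, at 7.74, 6.69 and 7.47 CPM, overlapped the low dose. H2BC12 rose by 0.30 (SE 0.0852, adjusted p = 0.00481). With plain library totals in place of TMM it was 0.15 higher and did not pass (adjusted p = 0.161). That scaling put the median of all genes in this comparison at -0.16, against -0.01 with TMM, and with it 0 members rose and 5 fell. It also put that median at -0.11 between the high doses of Sibjeondaebo-tang and Palmul-tang, and at -0.13 both for their difference in dose response and for high-dose Sibjeondaebo-tang against vehicle. The split was 1 and 1 with DESeq2, and without low-dose replicate 3 it was 1 and 2.

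The sum of H4C14 and H4C15 changed more clearly than either copy. The sum was 8.80, 9.36 and 8.94 CPM in the high-dose libraries, against 10.7, 11.2 and 12.6 CPM in the low-dose libraries. The groups did not overlap, and the medium dose lay between them at 10.1, 9.58 and 9.62 CPM. Summed before the fit, a choice made after the counts were seen, the pair fell by 0.35 (SE 0.0787, adjusted p = 0.00068). Singly, H4C14 differed by -0.09 (adjusted p = 0.898) and H4C15 by -0.51 (adjusted p = 0.34). Leaving out any of the 6 libraries left the sum at -0.39 to -0.28, past the threshold each time, and plain totals gave -0.50.

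By family, the H4 genes summed to 16.6 ± 0.686 CPM at the high dose, against 20.96 ± 2.09 CPM at the low dose (SD, n = 3 each). The H3 genes summed to 9.23 ± 0.365 CPM at the high dose and 11.3 ± 0.681 CPM at the low dose. Neither family's libraries overlapped between these doses, and both were also lower at the high dose with plain totals, at 15.4 against 21.7 CPM for H4 and 8.59 against 11.7 CPM for H3. The H3 sum includes H3C6, which averaged 3.92 CPM at the high and 6.09 CPM at the low dose. H3C10 averaged 3.07 and 2.91 CPM. The H4 sum includes the H4C14 and H4C15 pair and H4C8, which averaged 5.63 and 7.06 CPM. These sums thus largely carry members reported above and do not show that the other members of a family fell. The H2A genes summed to 36.2 ± 2.69 CPM at the high dose and 32.2 ± 2.19 CPM at the low dose, the H2B genes to 31.8 ± 1.99 and 29.6 ± 1.79 CPM, and the H1 genes to 12.2 ± 0.848 and 10.9 ± 0.990 CPM. These 3 families overlapped between doses, and the direction of H2B turned with plain totals (29.5 CPM at the high dose, 30.6 CPM at the low dose). With that scaling the H2A genes came to 33.7 and 33.4 CPM at the high and low dose, and the H1 genes to 11.4 and 11.2 CPM. The sum over all members was 106 ± 3.31 CPM at the high dose and 105 ± 3.68 CPM at the low dose with TMM, but 98.6 and 108.6 CPM with plain totals.

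**Figure D3:**
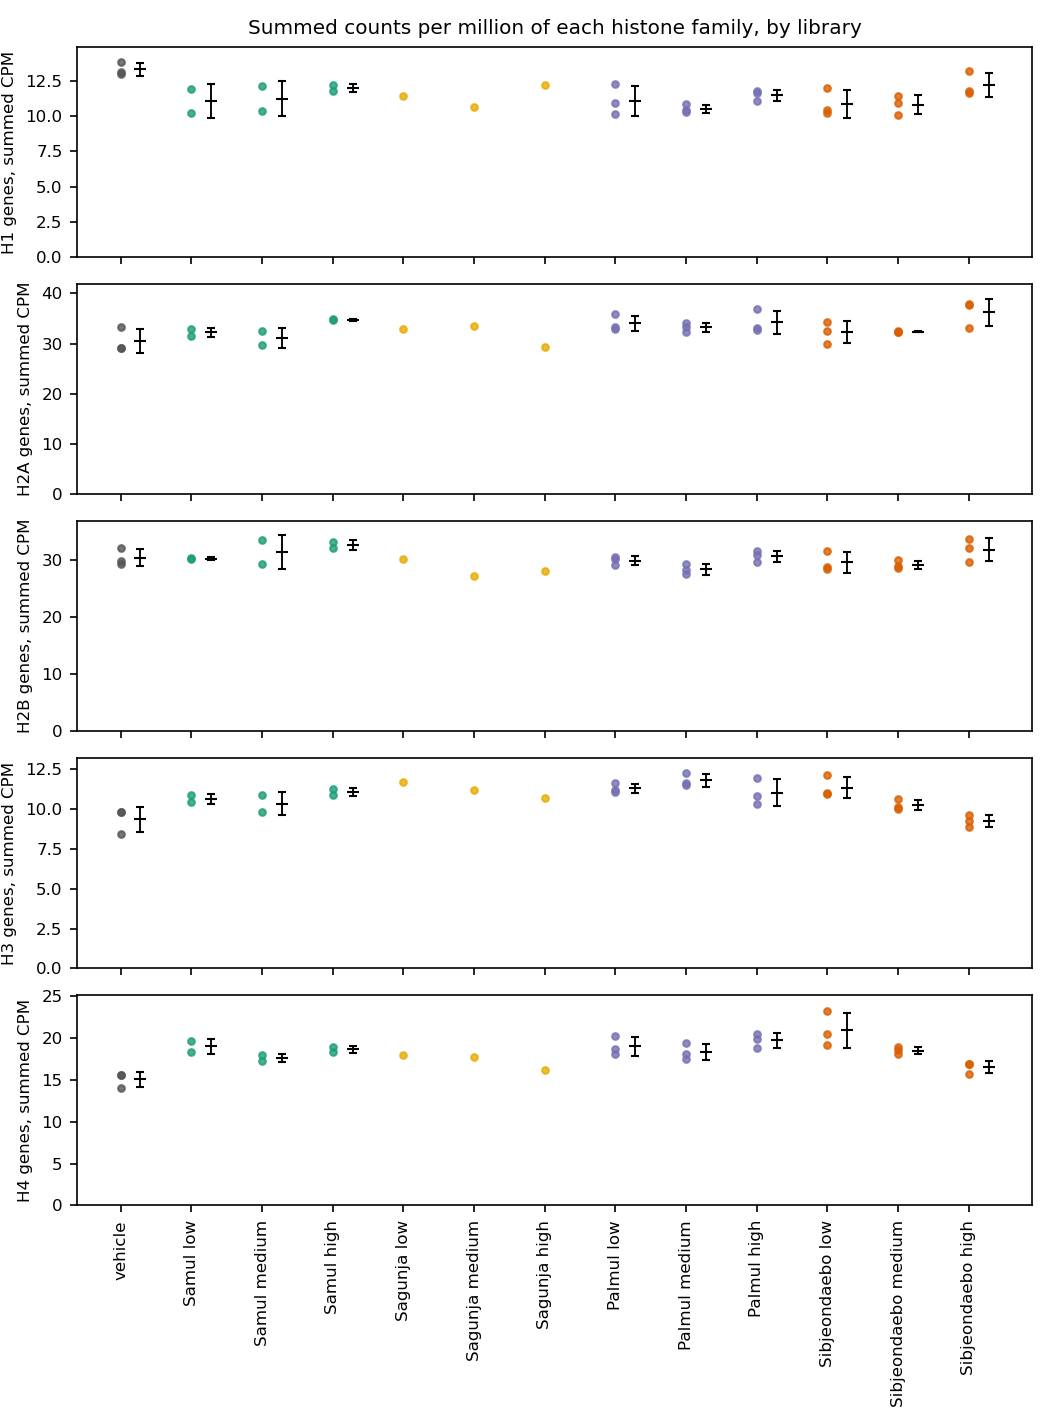
Summed CPM (TMM-scaled, linear axis from 0) of the H1, H2A, H2B, H3 and H4 genes for vehicle and each formula and dose. Points are libraries, and black marks with bars are the mean ± SD where a group has 2 or more libraries. Across the low, medium and high dose of Sibjeondaebo-tang the H4 genes averaged 20.96, 18.5 and 16.6 CPM and the H3 genes 11.3, 10.2 and 9.23 CPM.

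The 4 members that fell shared an annotated form. In each of them the annotated transcript runs at least 100 bases past the stem-loop, as it does in 21 of the 34 tested members. Of these 21, 14 had a negative log2 difference, and their median was -0.11. These 21 include every tested H3 gene and every tested H4 gene except H4C11, so transcript form and family were not separated. H3C14 and H3C15, which have the same values, and H4C14 and H4C15, which share reads, are each counted separately. Of the 6 tested members whose transcripts end nearer the stem-loop, 1 had a negative difference, 0 passed, and the median was 0.14. Of the 7 with no stem-loop in the annotation, 1 was negative, 1 rose and the median was 0.30 (H2BC12 belongs here). Several v29 models in this class are short, with 381 bases for H2BC12, 390 for H2AC20 and 393 for H2AC15 and H2AC17. A missing stem-loop therefore describes the annotation and does not show that the RNA lacks one. The difference between these classes was not tested. The class also holds members without such a fall, such as H2BC21 at 7.79, 7.49 and 8.25 CPM in the high-dose libraries, against 7.99, 7.72 and 7.47 CPM in the low-dose libraries. Of the 6 members that were listed as giving polyadenylated transcripts too (H1-2, H2AC6, H2BC4, H2BC5, H2BC12 and H2BC21), 1 rose, 0 fell and the median was 0.16.

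**Figure D4:**
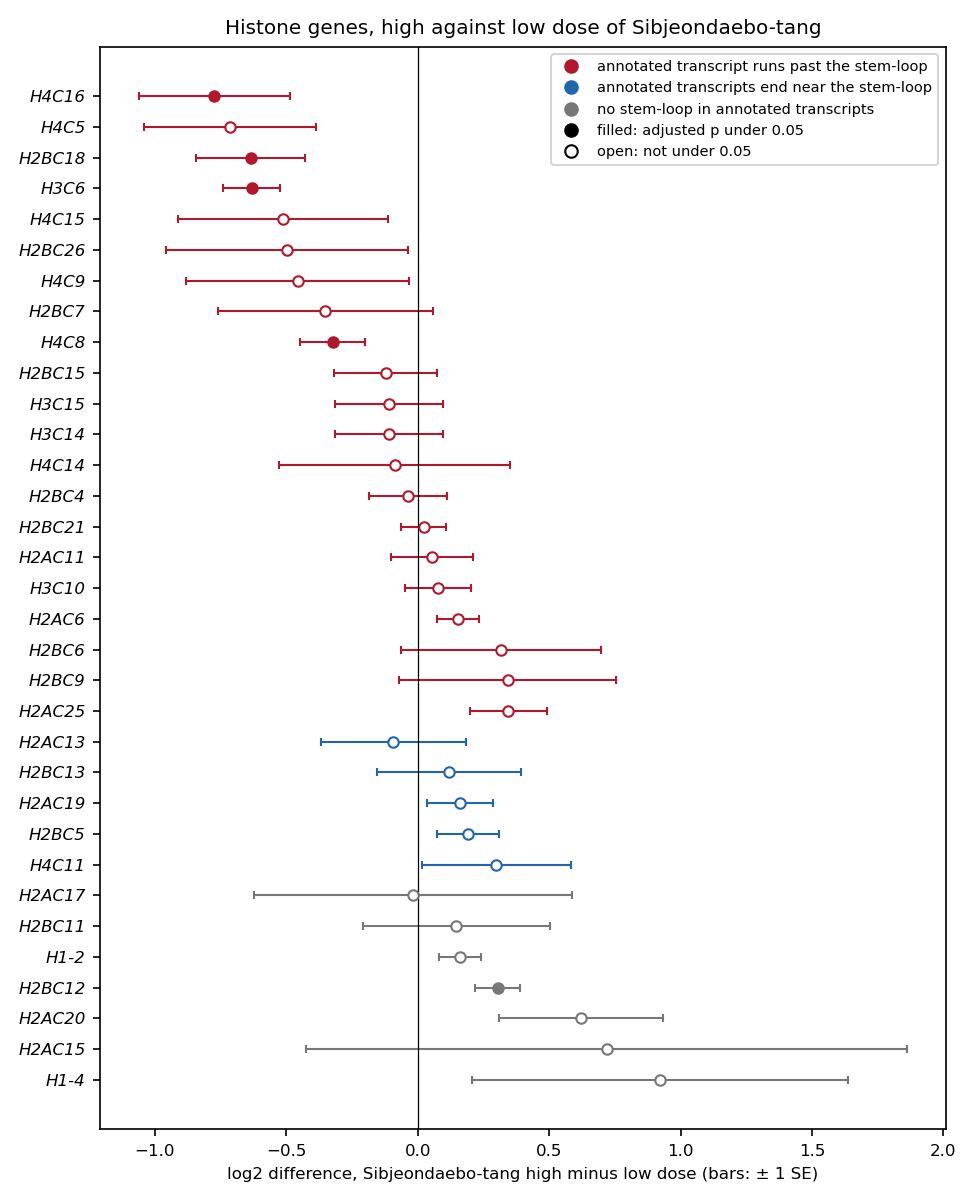
Log2 difference (high minus low dose of Sibjeondaebo-tang, bars ± 1 SE) of 33 tested histone genes, coloured by whether the annotated transcript runs past the stem-loop, ends near it or does not reach one. H2AC18, at 0 in 22 libraries, is left out. Filled points have an adjusted p under 0.05: H4C16, H2BC18, H3C6 and H4C8 lie below 0 and H2BC12 lies above 0.

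Palmul-tang and Samul-tang gave no call between their high and low doses. For Palmul-tang at the high against the low dose, 0 of 34 members passed, while 3.47% of all genes did (1.46% higher and 2.02% lower, edgeR's quasi-likelihood test). DESeq2 also called 0, and 5 had an unadjusted p under 0.05. H3C6 was lower there too in value, at 5.02, 5.54 and 5.25 CPM in the high-dose libraries, against 5.78, 6.14 and 6.54 CPM in the low-dose libraries, but its difference of -0.23 (SE 0.103) did not pass (adjusted p = 0.294). H4C8 had 6.75, 7.26 and 6.86 CPM in the high-dose libraries, within the 5.44 to 7.67 CPM of the low dose. For Samul-tang 0 of 34 members passed at the high against the low dose, with 2 at an unadjusted p under 0.05 and 0 by DESeq2, and 1.34% of all genes passed (0.604% higher and 0.74% lower). H3C6 differed by -0.19 in Samul-tang (SE 0.129, adjusted p = 0.547).

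Between the medium and low doses few genes of any kind passed. For Sibjeondaebo-tang 0 members passed at the medium against the low dose (3 at an unadjusted p under 0.05, 0 by DESeq2), while 0.0113% of all genes did (0.00565% in each direction). H3C6 gave the smallest p there, with a difference of -0.27 (SE 0.103, adjusted p = 0.727). For Palmul-tang 0 members passed (1 at an unadjusted p under 0.05, 0 by DESeq2), beside 0.00565% of all genes, all of it lower.

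Whether Sibjeondaebo-tang and Palmul-tang differed in their response was asked directly in the same fit. For the difference of the differences between high and low dose, 0 of 34 members passed (6 at an unadjusted p under 0.05, 0 by DESeq2), and 14.9% of all genes did (5.59% higher and 9.29% lower). H3C6 came nearest, at -0.40 (SE 0.150, adjusted p = 0.066), and H4C9, H4C5, H2AC25, H4C16 and H4C8 followed at -1.56, -1.11, 0.51, -0.94 and -0.40 with adjusted p of 0.0728, 0.0878, 0.095, 0.0994 and 0.128. H2AC25, an H2A gene, thus differed in the other direction from the rest. The sum of H4C14 and H4C15 passed at -0.32 (SE 0.1104, adjusted p = 0.0488). Counts were small and moved with the setting: 2 members fell without Palmul-tang low replicate 3, 1 rose without Palmul-tang high replicate 3, and 4 fell with plain totals.

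At the high doses themselves, 1 member was higher and 3 were lower in Sibjeondaebo-tang than in Palmul-tang, and 30.3% of all genes differed (14.3% higher and 16% lower). H3C6 was 0.42 lower (SE 0.112, adjusted p = 0.00412), with 3.67 to 4.16 CPM in Sibjeondaebo-tang and 5.02 to 5.54 CPM in Palmul-tang. H2BC12 was 0.31 higher (SE 0.0860, adjusted p = 0.0062), with 8.65 to 9.78 CPM in Sibjeondaebo-tang and 7.18 to 7.79 CPM in Palmul-tang, and with plain totals this was 0.20 and did not pass (adjusted p = 0.0851). H4C16 was 0.86 lower (adjusted p = 0.0233) and H4C5, another H4 gene, 0.91 lower (adjusted p = 0.0312). H4C5 had 10, 9 and 9 counts in the Sibjeondaebo-tang libraries, against 24, 16 and 20 counts in the Palmul-tang libraries. Without Palmul-tang high replicate 3 only H3C6 and H2BC12 passed, since H4C16 then had an adjusted p of 0.0823 and H4C5 of 0.0503. H4C16 was also lost without Sibjeondaebo-tang high replicate 2 (0.127) or 3 (0.0743), with DESeq2 (0.0858) and with no filter on low counts (0.0579). H4C5 was also lost with DESeq2 (0.103), with no filter (0.0702) and without Palmul-tang replicate 1 (0.115) and Sibjeondaebo-tang replicates 1 (0.0625), 2 (0.0708) and 3 (0.0993). With plain totals 0 members were higher and 5 lower, and with DESeq2 it was 1 and 1. Summed, H3C14 and H3C15 were 0.42 lower in Sibjeondaebo-tang (SE 0.162, adjusted p = 0.0466). Against vehicle this sum was 0.45 higher in high-dose Palmul-tang (adjusted p = 0.0282, edgeR's test). It differed by 0.03 in high-dose Sibjeondaebo-tang (0.911), and by -0.12 between the high and low dose of that formula (0.619).

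Against vehicle, H4C8 was higher in each extract group tested that had 2 or more libraries. It had 6.26, 6.96 and 7.96 CPM in low-dose Sibjeondaebo-tang, 5.44, 6.64 and 7.67 CPM in low-dose Palmul-tang and 6.77 and 6.59 CPM in low-dose Samul-tang, against 4.31, 3.84 and 4.45 CPM in vehicle. Every extract library was above every vehicle library. H4C8 rose by 0.75 in low-dose Sibjeondaebo-tang (SE 0.132, adjusted p = 3.52e-05), by 0.66 in low-dose Palmul-tang (SE 0.134, adjusted p = 0.000242) and by 0.67 in low-dose Samul-tang (SE 0.148, adjusted p = 0.00079). At the high dose it rose by 0.73 in Palmul-tang (SE 0.133, adjusted p = 6.36e-05), by 0.73 in Samul-tang (SE 0.147, adjusted p = 0.000373) and by 0.43 in Sibjeondaebo-tang (SE 0.139, adjusted p = 0.0134). The last was lost without vehicle replicate 2 (0.059), without Sibjeondaebo-tang high replicate 3 (0.0586) and with plain totals (0.0591). KRT8, an epithelial keratin, was 0.29 lower than vehicle in low-dose Sibjeondaebo-tang, 0.28 lower in low-dose Palmul-tang and 0.29 lower in low-dose Samul-tang (adjusted p = 6.86e-06, 1.32e-05 and 5.69e-05), and KRT18 and KRT19 passed in the same direction in each. Other markers of this epithelium did not fall. ALDH1A1 was 0.22 higher than vehicle in low-dose Samul-tang (adjusted p = 0.00344, edgeR's test). It was also higher at the low dose of Palmul-tang, by 0.19 (0.00274), and at that of Sibjeondaebo-tang, by 0.26 (9.94e-05). EPCAM rose by 0.21 at each of the last 2 doses (0.0102 and 0.00886) and did not pass in low-dose Samul-tang (0.175). CDH1 and AKR1B10 did not pass at any of these low doses. The part of these markers and of those of other cell types in the results against vehicle was not tested. The vehicle libraries are shared by these comparisons, which are thus not independent of each other.

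In counts, 3 of 34 members rose and 3 fell in high-dose Sibjeondaebo-tang against vehicle, where 41.8% of all genes passed (20% higher and 21.8% lower). At its low dose 5 rose and 3 fell, beside 36.9% of all genes (18.6% higher and 18.2% lower). In high-dose Palmul-tang 6 rose and 1 fell, beside 37.1% of all genes (19% higher and 18.1% lower). In low-dose Palmul-tang 4 rose and 4 fell, beside 36% of all genes (18.2% higher and 17.8% lower). In high-dose Samul-tang 3 rose and 0 fell, beside 29.2% of all genes (15.3% higher and 13.9% lower). In low-dose Samul-tang 3 rose and 2 fell, beside 30.7% of all genes (15.6% higher and 15.1% lower). Without vehicle replicate 1 or 3 the members called came to 4 in high-dose Palmul-tang and 5 in low-dose Palmul-tang, and without Palmul-tang high replicate 2 or 3 they came to 4 at its high dose. Without Samul-tang high replicate 3 or low replicate 3, 1 member was called at that dose, H4C8. With plain totals the splits of higher and lower were 2 and 4 in high-dose Sibjeondaebo-tang, 5 and 2 in low-dose Palmul-tang, 3 and 1 in low-dose Samul-tang and 1 and 0 in high-dose Samul-tang.

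H3C6 was also above vehicle at the low doses. It had 5.75, 5.68 and 6.82 CPM in low-dose Sibjeondaebo-tang, 5.78, 6.14 and 6.54 CPM in low-dose Palmul-tang and 5.66 and 6.04 CPM in low-dose Samul-tang, against 3.35, 4.51 and 4.77 CPM in vehicle. No low-dose library overlapped vehicle. H3C6 rose by 0.54 (SE 0.108, adjusted p = 0.000185) in Sibjeondaebo-tang, by 0.56 (SE 0.109, adjusted p = 0.000141) in Palmul-tang and by 0.48 (SE 0.122, adjusted p = 0.00267) in Samul-tang. The Samul-tang call was lost without its replicate 3 (0.0669). At the high dose H3C6 rose by 0.33 in Palmul-tang (adjusted p = 0.0188), a call lost without vehicle replicate 1 (0.228), without Palmul-tang high replicate 2 (0.0645) and in a fit to these groups alone (0.06). In high-dose Sibjeondaebo-tang its difference from vehicle was -0.09 (SE 0.118, adjusted p = 0.557), where the libraries overlapped.

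H2AC6, an H2A gene, and H2BC5, an H2B gene, were higher at the high dose of Sibjeondaebo-tang than in vehicle. H2AC6 had 16.3, 17.2 and 17.8 CPM in that high dose and 15.9, 16.1 and 17.9 CPM in the high dose of Palmul-tang, against 12.7, 12.3 and 14.5 CPM in vehicle. It rose by 0.38 (SE 0.0820, adjusted p = 0.000275) in Sibjeondaebo-tang, by 0.34 (SE 0.0811, adjusted p = 0.0011) in Palmul-tang and by 0.30 (SE 0.0906, adjusted p = 0.0128) in Samul-tang, the last lost without vehicle replicate 2 (0.0542), without Samul-tang high replicate 3 (0.225) and with plain totals (0.0817). H2BC5 had 7.51, 7.13 and 7.19 CPM in the high dose of Sibjeondaebo-tang, against 5.20, 4.67 and 5.46 CPM in vehicle, and rose by 0.51 (SE 0.124, adjusted p = 0.00107). It rose by 0.41 in high-dose Palmul-tang (SE 0.123, adjusted p = 0.00861), which did not pass without vehicle replicate 2 (0.0525). Under each setting tried, H2AC6 and H2BC5 passed at the high dose of Sibjeondaebo-tang.

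Genes below vehicle were mostly scarce ones of H1 and H2B. H2BC13 had 0.677, 0.594 and 0.825 CPM in high-dose Sibjeondaebo-tang and 0.567, 0.711 and 0.661 CPM at its low dose, against 1.40, 0.968 and 1.55 CPM in vehicle. It fell by 0.88 at the high dose (SE 0.254, adjusted p = 0.00528) and by 1.00 at the low dose (SE 0.248, adjusted p = 0.00167). It also fell by 1.12 at the low dose of Palmul-tang (adjusted p = 0.000698) and by 1.10 at that of Samul-tang (adjusted p = 0.0039), the last lost without Samul-tang low replicate 3 (0.158). H2BC18 had 0.505, 0.970 and 1.056 CPM in high-dose Sibjeondaebo-tang, against 1.74, 1.44 and 1.61 CPM in vehicle, a fall by 0.91 (SE 0.208, adjusted p = 0.000579). H2BC26 fell by 1.10 there (SE 0.443, adjusted p = 0.045) on 6, 5 and 4 counts, against 9, 14 and 9 counts in vehicle. Its call was lost with DESeq2 (0.123), with no filter on low counts (0.102), without vehicle replicate 2 (0.162) or 3 (0.0673) and without any replicate of the high dose (0.0616, 0.0845 and 0.156 for replicates 1, 2 and 3).

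The linker histone H1-2 was lower than vehicle at the low doses of Sibjeondaebo-tang, Palmul-tang and Samul-tang, and H1-4 at those of Sibjeondaebo-tang and Palmul-tang. H1-2 had 11.8, 9.83 and 10.2 CPM in low-dose Sibjeondaebo-tang, against 12.6, 12.3 and 12.97 CPM in vehicle, and fell by 0.25 (SE 0.0788, adjusted p = 0.0136), which did not pass without low-dose replicate 2 (0.0948) or 3 (0.0632). H1-2 fell by 0.22 in low-dose Palmul-tang (adjusted p = 0.0248) and by 0.23 in low-dose Samul-tang (adjusted p = 0.0452). The Palmul-tang call was lost without vehicle replicate 1 (0.0611) or 3 (0.0757), without Palmul-tang low replicate 2 (0.165) or 3 (0.0771) and with DESeq2 (0.0596) and plain totals (0.0589). The Samul-tang call was lost in 10 of 12 alternatives, among them those without vehicle replicate 1 (0.0883), 2 (0.058) or 3 (0.0996), without Samul-tang low replicate 3 (0.434), with DESeq2 (0.0862), with RLE size factors (0.0501), with no filter on low counts (0.0547), in a fit to the groups alone (0.0559) and with plain totals (0.0697). H1-4 had 2, 7 and 3 counts in low-dose Sibjeondaebo-tang, against 10, 16 and 16 counts in vehicle, and fell by 2.09 (SE 0.619, adjusted p = 0.00826). It fell by 1.63 in low-dose Palmul-tang (adjusted p = 0.0297) and by 1.501 in high-dose Palmul-tang (adjusted p = 0.042), of which the first was lost without vehicle replicate 2 (0.0746) or 3 (0.0968) and Palmul-tang low replicate 1 (0.0689) or 2 (0.0957). The second was lost without vehicle replicate 2 (0.095) or 3 (0.126) and Palmul-tang high replicate 2 (0.149) or 3 (0.11). In low-dose Samul-tang H1-4 overlapped vehicle and did not pass in edgeR's test (-1.03, SE 0.625, adjusted p = 0.233). Its Samul-tang libraries had 14, 21 and 12 counts at the high, medium and low dose in replicate 2. In replicate 3 they had 2, 5 and 3 counts.

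Most of the remaining calls against vehicle were lost in several alternatives. H2AC6 rose by 0.23 in low-dose Sibjeondaebo-tang (adjusted p = 0.0242), although its replicate 1, at 13.4 CPM, lay within the vehicle range, and the call was lost without vehicle replicate 1 (0.0942) or 2 (0.113) and Sibjeondaebo-tang low replicate 2 (0.153) or 3 (0.088) and in a fit to the groups alone (0.0589). It rose by 0.33 in low-dose Palmul-tang (adjusted p = 0.00183), which passed in each of 13 alternatives, and by 0.29 in low-dose Samul-tang (adjusted p = 0.0125), the last lost without vehicle replicate 2 (0.0575) or Samul-tang low replicate 3 (0.32). H2BC5 rose by 0.32 in low-dose Sibjeondaebo-tang (adjusted p = 0.0379), lost without vehicle replicate 1 (0.073) or 2 (0.152) and without Sibjeondaebo-tang low replicate 2 (0.342), with DESeq2 (0.0621) and in a fit to the groups alone (0.0563). H2BC12 fell by 0.25 in low-dose Palmul-tang (adjusted p = 0.0219), lost without vehicle replicate 1 (0.113) or 2 (0.0643), Palmul-tang low replicate 2 (0.103) or 3 (0.0725), with DESeq2 (0.0618) and with plain totals (0.0501). H2BC11 rose by 1.00 in high-dose Palmul-tang (adjusted p = 0.0284), lost without vehicle replicate 1 (0.0742) or 3 (0.0841) and Palmul-tang high replicate 2 (0.0601) or 3 (0.0992). H2BC21 rose by 0.26 in high-dose Samul-tang (adjusted p = 0.0332), lost without any library of the 2 groups (0.0786 to 0.145) except vehicle replicate 1, with DESeq2 (0.0696), with no filter on low counts (0.0531), in a fit to the groups alone (0.0547) and with plain totals (0.0871), or in 8 of 12 alternatives.

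H4C15 passed in 3 of the comparisons with vehicle, where its copy H4C14 took most shared counts in vehicle replicates 1 and 3. The sum of both is the steadier value. It was 10.7, 11.2 and 12.6 CPM in low-dose Sibjeondaebo-tang, against 8.68, 7.88 and 9.18 CPM in vehicle, and rose by 0.43 (SE 0.0796, adjusted p = 6.57e-05). The sum rose by 0.29 in low-dose Palmul-tang (adjusted p = 0.00532), by 0.29 in low-dose Samul-tang (adjusted p = 0.0132) and by 0.26 in high-dose Palmul-tang (adjusted p = 0.0123). In high-dose Sibjeondaebo-tang it differed by 0.08 (SE 0.0840, adjusted p = 0.466). H4C15 alone rose by 1.45 in low-dose Sibjeondaebo-tang, 1.36 in low-dose Palmul-tang and 1.25 in high-dose Palmul-tang, with adjusted p of 0.0157, 0.0243 and 0.0399. In fits to the compared groups alone these were 0.252, 0.276 and 0.319. They were also lost without Sibjeondaebo-tang low replicate 3 (0.061) at the first dose, without vehicle replicate 1 (0.0701) or 3 (0.0605) and Palmul-tang low replicate 1 (0.0798) at the second, and without vehicle replicate 1 (0.125) or 3 (0.0896) and Palmul-tang high replicate 1 (0.122) or 3 (0.0647) at the last. With no filter on low counts the last had an adjusted p of 0.0713, and it was lost in 7 of 12 alternatives in all.

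Sagunja-tang had 1 library per dose. Its high dose against vehicle gave 0 members past the threshold (2 at an unadjusted p under 0.05, 0 by DESeq2), beside 13.8% of all genes (7.44% higher and 6.39% lower), in a fit that assumes that the lone library varies like the other groups. Without vehicle replicate 2 it gave 2 and without vehicle replicate 3 it gave 1. H4C8 was at 5.53, 5.86 and 4.90 CPM at the low, medium and high dose of Sagunja-tang, with exact 95% Poisson intervals of 4.76 to 6.39, 5.05 to 6.76 and 4.19 to 5.69 CPM for counting error only. The interval at the high dose includes the highest vehicle value, 4.45 CPM. H3C6 was at 5.71, 5.01 and 5.44 CPM over the same doses, above each vehicle library. Its Poisson intervals at the medium (4.26 to 5.85 CPM) and high dose (4.70 to 6.27 CPM) include the highest vehicle value, 4.77 CPM. At the high dose it was 0.38 higher than vehicle (SE 0.150, adjusted p = 0.0904).

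Genes that act with these histones were compared between the same doses of Sibjeondaebo-tang. Of 29 DNA replication genes 22 rose and 2 fell at the high against the low dose (median 0.26), beside the 38.4% of all genes that passed, and with plain totals 11 rose and 2 fell. TK1, thymidine kinase, averaged 99.2 CPM at the high dose and 69.7 CPM at the low dose and rose by 0.51 (SE 0.0517, adjusted p = 2.55e-09). MCM5, a subunit of the replicative helicase, averaged 80.7 CPM at the high dose and 59.3 CPM at the low dose and rose by 0.44 (adjusted p = 1.32e-08). The ribonucleotide reductase subunits RRM1 and RRM2 rose by 0.37 and 0.29, and TYMS, thymidylate synthase, rose by 0.39. In this comparison, replication genes were higher at the dose where H3C6 and the summed H4 pair were lower. Whether these go together was not tested.

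The histones listed as replication-independent gave 8 higher and 0 lower of 11 tested (median 0.19), and 2 higher and 1 lower with plain totals. H2AX, the H2A variant phosphorylated at DNA breaks, averaged 83.4 CPM at the high dose and 61.8 CPM at the low dose and rose by 0.43 (SE 0.0722, adjusted p = 4.26e-05). CENPA, the H3 variant of centromeres, averaged 17.6 CPM at the high dose and 13.1 CPM at the low dose and rose by 0.42 (SE 0.0851, adjusted p = 0.000194). H3-3A and H3-3B, which encode the H3.3 variant, rose by 0.18 each, with adjusted p of 0.00371 and 0.00453.

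Among 15 histone chaperones and acetylation genes 9 rose and 1 fell (median 0.18), and with plain totals 3 rose and 4 fell. ASF1B, a chaperone of H3 and H4, rose by 0.44 (adjusted p = 1.55e-05), HAT1, which acetylates new H4, rose by 0.28 (adjusted p = 1.36e-05), and ATRX fell by 0.34 (adjusted p = 2.45e-06). Of 20 genes for histone mRNA synthesis, processing and decay 8 rose and 2 fell (median 0.09), and with plain totals 0 rose and 4 fell. SLBP, which binds the stem-loop, did not pass and averaged 35.6 CPM at the high dose and 34.9 CPM at the low dose (difference 0.03, SE 0.0803, adjusted p = 0.828), and neither did NPAT, the coactivator of histone transcription, which averaged 13.2 and 13.1 CPM at those doses (difference 0.00, SE 0.0698, adjusted p = 0.974). ERI1, an exonuclease that trims the stem-loop, rose by 0.22 (adjusted p = 0.000545), and TUT7, a uridylyltransferase, fell by 0.25 (adjusted p = 0.00242). Of 13 G1/S regulators 3 rose and 0 fell (median 0.08), CCNA2, cyclin A2, by 0.41 (adjusted p = 3.42e-08), CDKN1A, which encodes p21, by 0.27 and CDKN1B by 0.13. With plain totals 1 of these rose and 2 fell. Of 7 tested markers of the A549 epithelium 4 rose and 2 fell between these doses, and of 3 tested markers of other cell types 0 passed; their part in the values above was not tested.

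**Figure D5:**
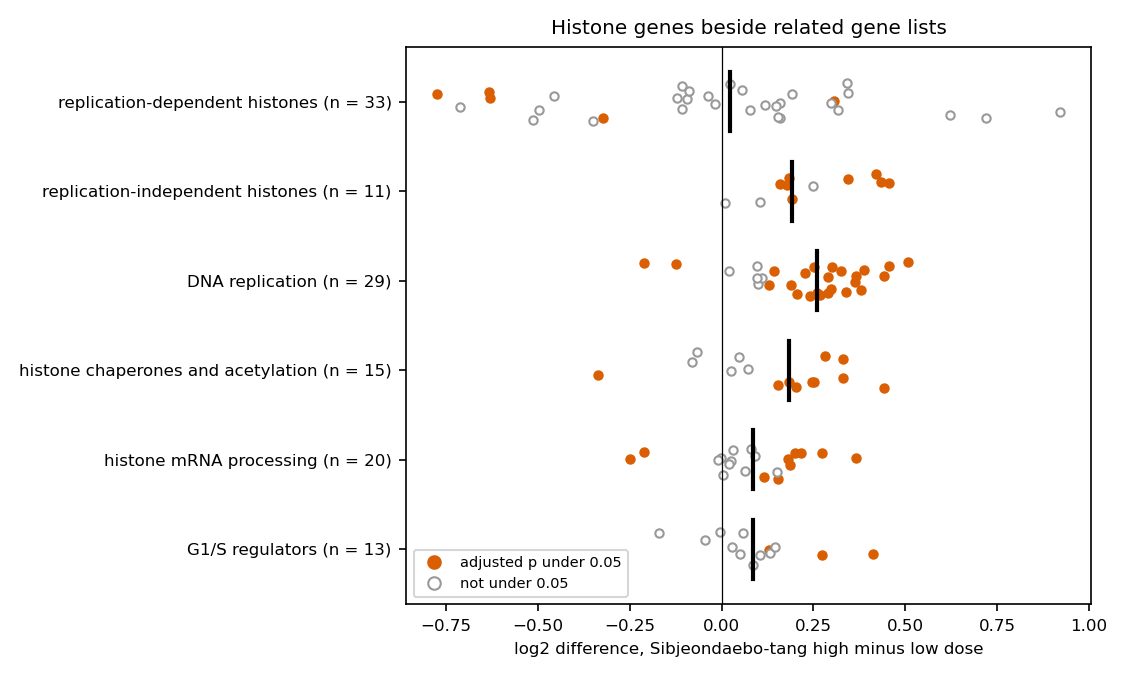
Log2 difference (high minus low dose of Sibjeondaebo-tang) of the genes tested in the replication-dependent histones (33, without H2AC18) and 5 related lists, scattered vertically within a list for visibility only. Orange points have an adjusted p under 0.05, open points do not, and the black bar is the median: 0.02 for the plotted replication-dependent histones, 0.19 for the replication-independent histones and 0.26 for the DNA replication genes.

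In Palmul-tang 13 of the 29 DNA replication genes rose and 0 fell at the high against the low dose (median 0.16), and 6 rose with plain totals. Of all genes 3.47% passed there (1.46% higher and 2.02% lower). LIG1, DNA ligase 1, led them with a rise by 0.29 (SE 0.0493, adjusted p = 0.000254). No replication-independent histone and no gene of histone mRNA processing passed there, by 0 of 11 and 0 of 20. Against vehicle, 1 replication gene rose and 15 fell in low-dose Sibjeondaebo-tang (median -0.14), where H3C6, H4C8 and the summed H4 pair had risen. Of all genes 36.9% passed there (18.6% higher and 18.2% lower). In that comparison H2AX averaged 61.8 CPM at the low dose and 97.6 CPM in vehicle and fell by 0.66 (adjusted p = 2.04e-07). Low-dose Palmul-tang gave 1 higher and 14 lower replication genes, beside 36% of all genes. Low-dose Samul-tang gave 1 and 12, beside 30.7% of all genes. The comparisons of low-dose Sibjeondaebo-tang with its high dose and with vehicle share the low-dose libraries and are not independent. In high-dose Sibjeondaebo-tang against vehicle, 7 replication genes rose and 3 fell, beside 41.8% of all genes. For high-dose Palmul-tang 7 rose and 6 fell, beside 37.1%. H4C8 was above vehicle at both high doses, and H3C6 and the summed H4 pair at that of Palmul-tang.

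Outside the family, the genes whose group means most resembled the summed level of the members over the 13 groups were ZBTB21 (Pearson r 0.93), ACTA2 (0.89), ANO4 (0.88), TMCO3 (0.88) and SNAPC1 (0.87), on log2 CPM with a pseudocount of 0.1. They were picked from 17701 genes for this likeness, 34 of which passed an r of 0.8, and the points share their scaling by library. The summed level itself covered a narrow range, from 96.45 CPM in the high dose of Sagunja-tang to 109.0 CPM in the high dose of Samul-tang, with vehicle at 98.5 ± 2.98 CPM (SD, n = 3).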

How the data were processed

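RNA of 30 A549 libraries in 13 groups was analysed. Per the labels' protocols, libraries were made with the MGIEasy RNA Directional kit and sequenced on an MGI instrument. Per the submitters' processing notes, FastQC 0.11.9, Trim Galore 0.6.5, STAR 2.7.3a, RSEM 1.3.3 and the hg38 build were used; the annotation release and strand setting are not given in the sources used here. The deposited unit is the expected count of a gene, as the authors estimated it, and 8.50% to 9.82% of them per library were not whole (tolerance 1e-06). The table's other 240 columns belong to samples not analysed here.

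Symbols were matched through GENCODE v29 (94.0% of gene IDs found) and RefSeq, and 4 members through older names. Expected counts were rounded. One quasi-likelihood model was fitted with edgeR 4.0.16 (R 4.3.3) to all libraries with a mean per group, TMM scaling (factors 0.923 to 1.05), filterByExpr, robust estimation and 17 residual degrees of freedom. P-values were adjusted by Benjamini-Hochberg over 17701 genes, with a threshold of 0.05. The biological coefficient of variation was 0.0496. An SE is the log2 difference divided by the square root of F. Sagunja-tang, with 1 library per dose, takes its spread from the other groups. The fit was tested on simulated data.

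The rule for naming was every member by level, the 10 with the highest mean, up to 12 called per comparison, up to 6 per related list and the 5 most alike genes. The members and lists were chosen with earlier results of these data known. Alternatives were DESeq2 1.42.0, RLE scaling, a replicate block, testing without the low-count filter, only the groups compared and leaving out each library. Chosen after seeing the data were summing identical copies and scaling by plain totals. Depth limits scarce members: intervals cover counting error only.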

Additional observations from a re-analysis of the deposited data

Results flagged for a closer look

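H2BC21, an H2B gene of chromosome 1, had values that lay in opposite order between the doses of Palmul-tang and Samul-tang. It had 7.65, 8.09 and 7.51 CPM at the high dose of Palmul-tang, against 8.25, 8.84 and 9.11 CPM at its low dose. In Samul-tang it had 9.38 and 9.499 CPM at the high dose, against 9.11 and 7.88 CPM at the low dose. Every high-dose library was below every low-dose library in Palmul-tang and above every one in Samul-tang. Neither difference passed, at -0.17 in Palmul-tang (adjusted p = 0.335) and 0.16 in Samul-tang (adjusted p = 0.528) in edgeR's quasi-likelihood test. The log2 difference between doses was 0.324 smaller in Palmul-tang than in Samul-tang (-0.324), and this difference was not tested.

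H4C16, the H4 gene on chromosome 12, also had values in opposite order between doses of Sibjeondaebo-tang and Samul-tang. It had 0.570, 0.297 and 0.396 CPM in high-dose Sibjeondaebo-tang, against 0.595, 0.711 and 0.871 CPM at its low dose. In Samul-tang it had 0.527 and 0.697 CPM at the high dose, against 0.489 and 0.332 CPM at the low dose. The difference of -0.77 in Sibjeondaebo-tang passed (adjusted p = 0.0323, edgeR) but was lost in 7 of 13 alternatives, and that of 0.58 in Samul-tang did not pass (adjusted p = 0.512). Sibjeondaebo-tang minus Samul-tang came to -1.362 on the log2 scale. This was not tested either, and it rests on 8 to 29 counts per library.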

How the results depend on the processing

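Over 14 comparisons 46 calls were made, of 15 members. Of these, 18 calls, of 7 members, passed in every alternative in which the member was tested, 28 were lost in some, and 0 reversed. The call of H1-4 in low-dose Sibjeondaebo-tang against vehicle was tested in 12 alternatives, those of H4C8 and H3C6 there in 13. DESeq2 called 2 members for Sibjeondaebo-tang high against low, 2 for its high dose against that of Palmul-tang, 5 for low-dose Palmul-tang against vehicle and 3 for low-dose Samul-tang against vehicle. In the difference of dose responses, where the full model called 0, the call count was 1 with no filter on low counts, 1 with identical copies summed and 4 with plain totals. A fit to the compared groups alone called 5 for low-dose Sibjeondaebo-tang against vehicle, and plain totals called 1 for high-dose Samul-tang against vehicle. With plain totals the summed level was 104.71 CPM in high-dose Samul-tang (109.0 with TMM), 104.99 in medium-dose and 107.71 in low-dose Palmul-tang (102.26 and 105.36), and 98.6 in high-dose Sibjeondaebo-tang (105.99). The cause was not tested.

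Leaving out 1 library at a time gave 3 to 6 calls for Sibjeondaebo-tang high against low, 2 to 4 for its high dose against that of Palmul-tang and 0 to 2 for the difference of dose responses. Against vehicle it gave 4 to 6 and 6 to 8 for high- and low-dose Sibjeondaebo-tang, 4 to 7 and 5 to 7 for Palmul-tang, 1 to 3 and 1 to 5 for Samul-tang, and 0 to 2 for high-dose Sagunja-tang. Replicate numbers did not pair the libraries: deviations of same-numbered libraries correlated at a median of 0.013 (111 pairs) and those of other libraries at -0.01 (216 pairs). With the replicate block the difference of dose responses gave 2 calls.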
